A study of Bos taurus with 47 samples.

Results

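The data described here are the 16 muscle transcriptomes of bovine F2 fetuses at day 84 of gestation, out of 47 libraries in the series, chosen by their labelled time point. The Longissimus dorsi was dissected from each whole fetus. The LG fetuses (n = 8) had F0 granddams, crossbred Angus heifers, that put on 0.28 kg daily until day 84 of their own pregnancy. For the MG fetuses (n = 8) the granddams put on 0.79 kg daily. The F0 heifers were managed as a single herd after that period, and the F1 dams of the fetuses were managed alike. The labels do not give the sex of the fetuses. The other libraries are Longissimus thoracis of F1 heifers, 16 at birth (8 LG, 8 MG) and 15 at slaughter (8 LG, 7 MG). The submitters' protocol text has the slaughter numbers the other way round (LG 7, MG 8), and the labels of the single libraries were followed.

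Skeletal muscle is built before birth, when myoblasts fuse into primary fibres and later into secondary fibres laid down around them, beside the connective tissue and fat cells of the same tissue. In cattle, the number of fibres is largely settled by birth, so undernutrition in early pregnancy is studied as a possible influence on later muscle. The germ cells of an F1 female arise during her own fetal life, inside the F0 dam, and this is a route by which an F0 diet could reach an F2 fetus.

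Total counts per fetal library ran from 15526773 to 21916940, so that 3 counts in the deepest library equal 0.137 CPM, a count scaled to a common library size. Of 27607 identifiers, 21730 had a count in a fetal library and 14200 passed the filter on low counts. The tables carry Ensembl identifiers and no gene names, and 0 of them could be paired with a symbol in the reference table used here. Genes are therefore given by identifier without a role, and the muscle label was not checked against marker genes. In whole tissue, fewer cells of a type and less RNA per cell cannot be told apart. In the comparisons with F1 muscle, stage goes together with generation, muscle region, a table of its own and possibly fetal sex, which cannot be told apart here.

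MG 20 and LG 41, singled out after their values were seen, stood apart from the other 14 fetuses and from each other. MG 20 held the highest or the lowest level of 51.5% of tested genes and LG 41 of 41%, where 12.5% is an equal share per library. The other 14 libraries held between 1.91% and 18.2%, and MG 20 or LG 41 was an extreme for 10817 genes, 76.2% of those tested. Their ranks across genes correlated with those of other fetuses at a median rho of 0.830 in MG 20 and 0.923 in LG 41, against 0.943 to 0.970 in the other 14 libraries. Both libraries were retained, and the component, spread and LG minus MG results are also given without them.

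**Figure D1:**
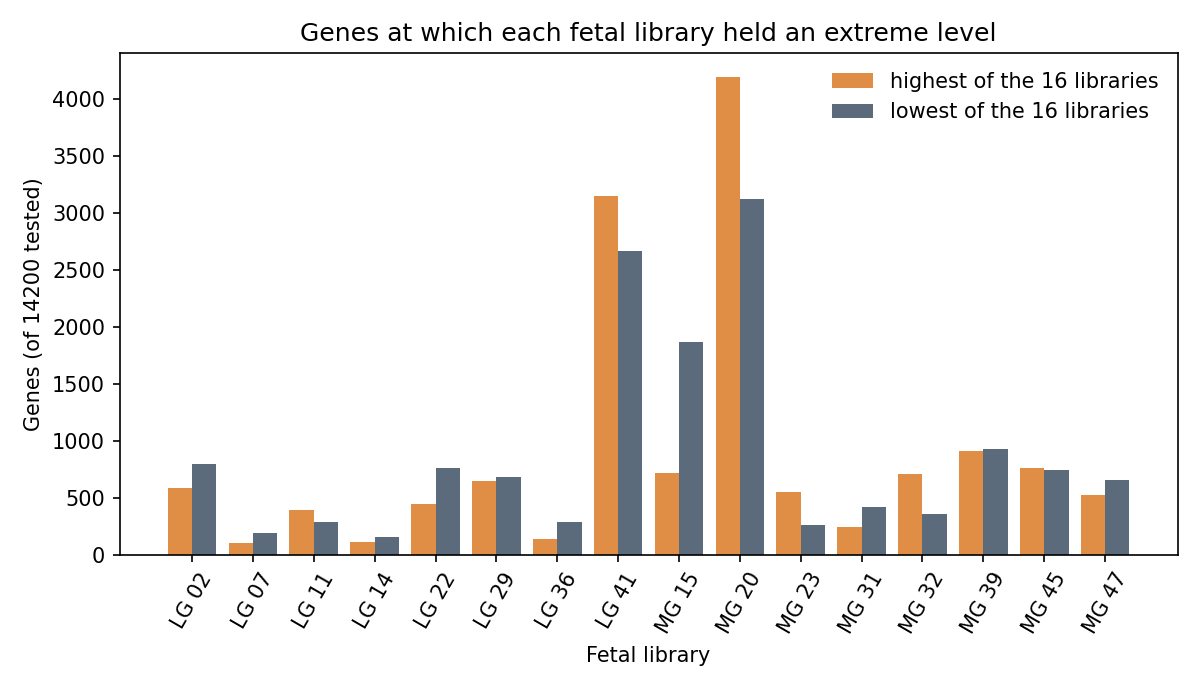
Number of genes, out of 14200 tested, at which each fetal library (x axis, LG then MG) had the highest (orange) or the lowest (grey) level of all 16. MG 20, with 4193 highest and 3120 lowest, and LG 41, with 3148 and 2667, exceed each of the other 14, and MG 15 follows with 1869 lowest.

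Among genes that deviated by over 4-fold, MG 20 was mostly above. It exceeded the median of the other 15 fetuses by over 4-fold for 2088 genes and fell short by that factor for 183. In the other 14 libraries, 3 to 209 genes were over 4-fold above and 20 to 299 below. The 2088 genes had a median level of 3.77 log2 CPM in fetal MG 20 and 1.38 in the 14 fetuses other than MG 20 and LG 41, against 2.49 in newborns and 2.82 at slaughter. Over all 14200 genes these medians were 3.53, 3.27, 3.18 and 3.22. The 2088 genes were chosen by their fetal levels, which sets MG 20 above the other fetuses, so the levels are a description without a test. In the newborn library numbered MG 20, 6 of these genes were over 4-fold above and 3 below the other newborns, against 31 and 31 of all 14200. In the slaughter library MG 20, 3 were above and 18 below, against 16 and 57 of all 14200, and their median deviation was -0.38 log2 CPM, against 0 over all genes.

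Among genes over 4-fold from the median of the other fetuses, LG 41 was below for 1238 and above for 66, although it was more often the highest than the lowest library. The 1238 genes had a median of -2.20 log2 CPM in fetal LG 41 and 0.76 in the 14 other fetuses, against 1.42 in newborns and 1.67 at slaughter. Over all tested genes these medians were 3, 3.27, 3.18 and 3.22. The 1238 genes were chosen by their low level in LG 41, where their median is near the floor of few or no counts. Their levels are a description without a test. Of the 1238 genes, 367 were also among the 2088 genes high in MG 20. This is 29.6% of the LG 41 list and 17.6% of the MG 20 list. For scale, the LG 41 and MG 20 lists hold 1238 and 2088 of all 14200 tested genes, and both have low median levels in the other fetuses. Whether the overlap exceeds that of other genes of like level was not tested. Another 28 genes were over 4-fold below in both libraries, and 5 were below in MG 20 and above in LG 41. LG 41 had the fewest detected genes, 15281 against 16199 to 18919 in the other fetuses, and 287 genes held 50% of its counts, against 403 to 554. Its TMM scaling factor was 0.741, against 0.957 to 1.12, while its total of 21680869 counts was among the highest. The part of these library features in its profile was not tested.

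Fetal muscle of the LG and MG lineages could not be distinguished gene by gene. With edgeR's quasi-likelihood test, 0 of 14200 genes passed an adjusted p of 0.05 (0%), and the smallest adjusted p was 1.00. Before adjustment, 102 genes had a p under 0.05 (0.718%), where a rate of 0.05 would give 710. LG was higher for 55 of them (0.387%) and lower for 47 (0.331%). A p under 0.01 together with an absolute log2 fold change over 0.5 was met by 9 genes (0.0634%), all higher in LG. With DESeq2 and with limma voom and sample weights 0 genes passed the adjusted threshold too. DESeq2 gave 215 of 14200 genes an unadjusted p under 0.05, 100 higher in LG and 115 lower. Weighted limma voom gave 2794 of 14200, above the 710 that a rate of 0.05 would give. Of these, 1876 were higher in LG and 918 lower, and the smallest adjusted p of weighted limma voom was 0.206. Without MG 20 and LG 41 edgeR also called 0 genes, with 548 at an unadjusted p under 0.05 (425 higher in LG, 123 lower). The LG and MG ranges overlapped for every tested gene, since 0 genes had all LG libraries on the same side of all MG libraries (0%). The log2 fold change of LG over MG had a median of -0.04 and quartiles of -0.21 and 0.11, with a median standard error of 0.28. It exceeded 1 for 34 genes and lay under -1 for 47.

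Taking the lowest p-values among genes higher and lower in LG shows what such differences looked like in single fetuses. ENSBTAG00000043567 had 85.2 to 931 CPM in LG fetuses (median 424), against 95.9 to 240 CPM in MG fetuses (median 182). The LG libraries lay far apart, with 5 above the highest MG library and LG 41 below the lowest, while the MG libraries were close together. The fitted log2 value of LG over MG was 1.31 (SE 0.39, edgeR adjusted p = 1.00). In F1 muscle the same gene averaged 1330 ± 449 CPM in LG and 1030 ± 294 CPM in MG newborns (SD, n = 8 each). There the log2 value was 0.36 (SE 0.22, edgeR adjusted p = 0.985), and at slaughter it was 0.21 (SE 0.19).

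ENSBTAG00000017681 had 2.30 to 16.0 CPM in LG fetuses (median 3.71), against 1.09 to 3.84 CPM in MG fetuses (median 2.15). The high LG values came from LG 02, LG 41 and LG 11, with 16.0, 14.6 and 11.9 CPM, and the other LG libraries had at most 3.94 CPM. The fitted log2 value was 1.49 (SE 0.46, edgeR adjusted p = 1.00), with all 8 LG libraries above the MG median. In newborns the log2 fold change was -0.05 (SE 0.14), and in F1 heifers at slaughter it was 0.02 (SE 0.16).

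ENSBTAG00000019794 was the most even of these, with 35.0 to 56.7 CPM in LG fetuses (median 46.1), against 55.2 to 66.2 CPM in MG fetuses (median 60.6). All 8 LG libraries lay below the MG median, and 6 lay below every MG library. The difference was small, with a log2 value of -0.35 (SE 0.12, edgeR adjusted p = 1.00). It was -0.09 (SE 0.08) at birth and -0.06 (SE 0.09) at slaughter. ENSBTAG00000040518 had 0.685 to 3.96 CPM in LG fetuses (median 1.79), against 0.476 to 21.9 CPM in MG fetuses (median 3.27). Its MG mean rested on MG 45 and MG 32, with 21.9 and 18.0 CPM, and the other MG libraries had at most 4.13 CPM. On the log2 scale the difference was -1.83 (SE 0.65, edgeR adjusted p = 1.00). It was 0.12 (SE 0.39) at birth and -0.25 (SE 0.32) at slaughter.

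**Figure D2:**
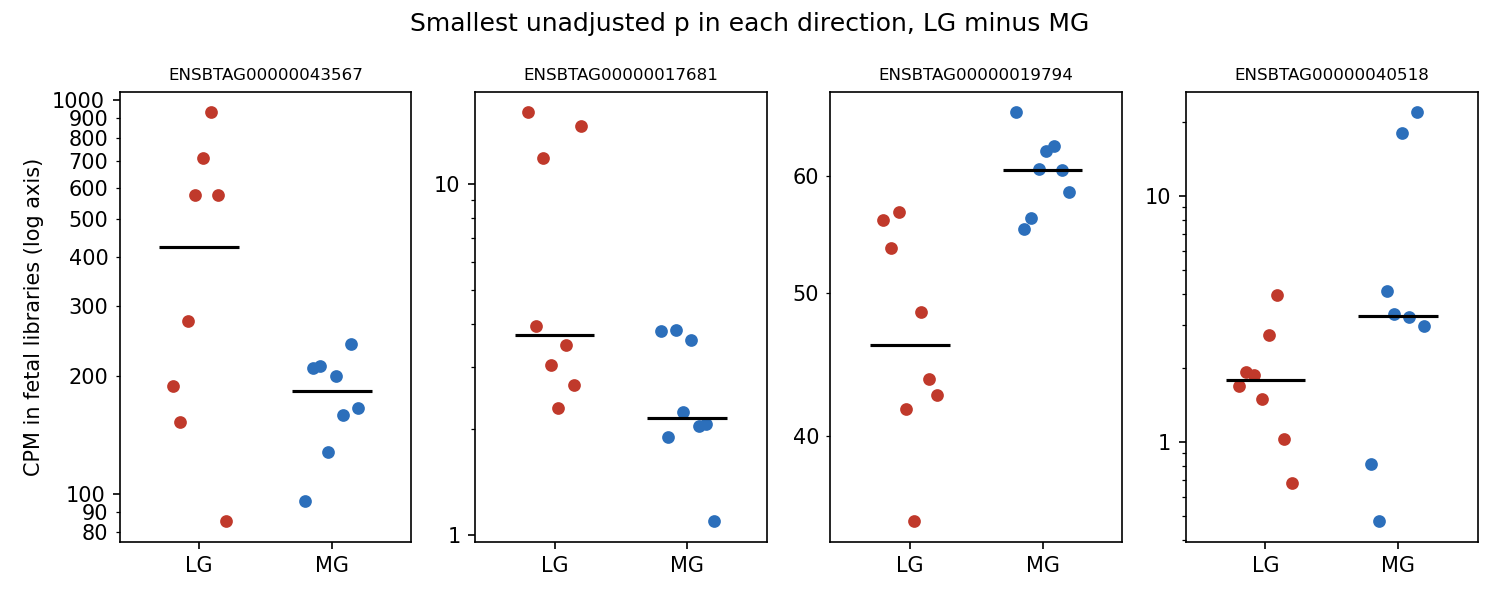
CPM of the genes of lowest unadjusted p, a pair higher and a pair lower in LG, per fetal library, on log axes with a separate scale for each panel; horizontal lines are medians of 8 LG and 8 MG libraries. The groups overlap in every panel, and single libraries such as LG 02 and MG 45 carry the high values of ENSBTAG00000017681 and ENSBTAG00000040518.

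Whether the LG and MG difference in fetuses departed from that in F1 muscle was tested as an interaction of stage and treatment. With edgeR, 0 of 14960 genes passed against slaughter (0%), with 282 at an unadjusted p under 0.05 (1.89%) and 594 without MG 20 and LG 41. Against birth, 0 of 14820 passed (0%), with 355 at an unadjusted p under 0.05 (2.40%) and 482 without MG 20 and LG 41. With limma voom and sample weights 0 genes passed in either comparison, and 1930 (12.9%) against slaughter and 1991 (13.4%) against birth had an unadjusted p under 0.05. For ENSBTAG00000017681 the LG minus MG log2 value in fetuses exceeded that in newborns by 1.50 (SE 0.48, edgeR adjusted p = 1.00) and that at slaughter by 1.44 (SE 0.51, edgeR adjusted p = 1.00). That gene was named for its low p in the fetal comparison. The same fetal values enter the interaction, so a larger fetal difference was favoured by the choice.

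The fetuses differed from each other along an axis on which LG and MG did not separate detectably. The first principal component of log2 CPM over 14200 genes held 49.9% of the variance among the 16 libraries, and the second held 18.6%. Without MG 20 and LG 41 these shares were 44.4% and 15.3%. Scores on the first ran from -77.6 in MG 15 and -76.4 in LG 41 to 61.4 in LG 36 and 145 in MG 20. Between these ends the libraries formed a graded series in which LG and MG were mixed. The LG minus MG difference of mean scores was 0.21 (exact permutation p = 0.996, two-sided, n = 8 each). Without MG 20 and LG 41 it was 33.3 (exact permutation p = 0.201). By rank correlation across genes, the closest other fetus had the same treatment label for 8 of 16 libraries.

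**Figure D3:**
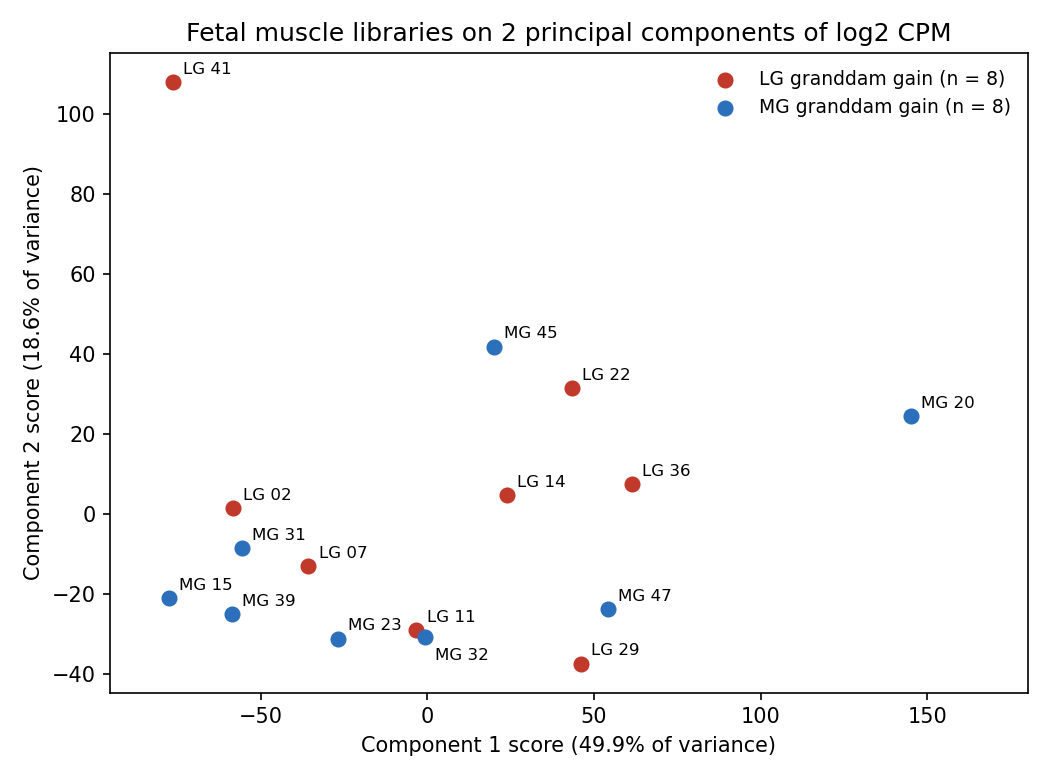
Scores of the 16 fetal libraries on the first (x axis, 49.9% of variance) and the second principal component (y axis, 18.6%) of log2 CPM, with LG in red and MG in blue. LG and MG points are mixed along both axes, with MG 20 alone at a score of 145 on the first and LG 41 alone at 108 on the second.

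Genes at the ends of the first component differed between fetuses by more than an order of magnitude. ENSBTAG00000006907 and ENSBTAG00000004079 had the largest positive weights among well expressed genes (mean log2 CPM 5 or more), and ENSBTAG00000006907 also had the widest within-group SD there. It ranged from 37.8 to 663 CPM in LG fetuses (median 213) and from 31.9 to 1090 CPM in MG fetuses (median 76.7). MG 20 was highest and MG 15 lowest, a ratio of 34.2, and without MG 20 and LG 41 the ratio was 20.8 with LG 29 highest. ENSBTAG00000004079 ranged from 20.0 to 162 CPM in LG fetuses (median 66.3) and from 11.8 to 387 CPM in MG fetuses (median 29.5). Its extremes were again MG 20 and MG 15, and without MG 20 and LG 41 its highest library was LG 36. With weights taken from the other 14 fetuses alone, both genes again had the largest positive weights. Both genes were lower in fetal than in newborn muscle, with a log2 difference of -3.54 for ENSBTAG00000006907 (SE 0.48, edgeR adjusted p = 3.83e-08) and -1.42 for ENSBTAG00000004079 (SE 0.38, edgeR adjusted p = 0.000972).

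The largest negative weights belonged to ENSBTAG00000000601 and ENSBTAG00000039302. ENSBTAG00000000601 ranged from 7.33 to 272 CPM in LG fetuses (median 181) and from 40.3 to 548 CPM in MG fetuses (median 110). ENSBTAG00000039302 ranged from 25.1 to 270 CPM in LG fetuses (median 175) and from 42.2 to 527 CPM in MG fetuses (median 187). LG 22 was lowest and MG 23 highest for both, and both again had the largest negative weights in the other 14 fetuses alone. Both genes were far higher in fetal than in newborn muscle. Their choice required a high mean level in fetuses, which favours this direction, so the stage p-values below are no independent evidence. On a scale common to the stages, ENSBTAG00000000601 averaged 120 CPM in fetuses, 2.40 in newborns and 2.54 at slaughter, and ENSBTAG00000039302 averaged 126, 0.0898 and 0.241 CPM. The fetus minus newborn log2 difference was 5.58 (SE 0.45, edgeR adjusted p = 1.95e-13) for ENSBTAG00000000601 and 10.34 (SE 0.52, edgeR adjusted p = 4.42e-19) for ENSBTAG00000039302.

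Longer lists were compared on the common scale. The 417 measured members of the 500 genes with the largest positive weights had a median level of 1.07 log2 CPM in fetuses, 2.50 in newborns and 2.74 at slaughter. The 281 measured members of the 500 with the largest negative weights had 4.33 log2 CPM in fetuses, 3.21 in newborns and 2.99 at slaughter. Members left out failed the filter on low counts in newborns or at slaughter, and more were lost from the negative list. The F1 levels are thus those of members expressed in F1 muscle, and the lists are not alike in this. All 11691 genes measured at every stage had medians of 3.92, 3.80 and 3.79 log2 CPM in fetuses, newborns and at slaughter. The fetal libraries enter both the weights and the fetal levels, so these levels are a description without a test. The median within-group SD of the list with positive weights was 1.37 log2 CPM in fetuses, 0.575 in newborns and 0.693 at slaughter. The list with negative weights had 0.753, 0.382 and 0.405, and all 11691 genes had 0.540, 0.309 and 0.303. The fetal SD is high by the choice of these genes, while the F1 libraries played no part in it. The genes with positive weights were low in level, and the 25% of genes with the lowest levels had a median SD of 0.833 in fetuses, 0.454 in newborns and 0.463 at slaughter. The part of level in this was not tested. With weights from the 14 fetuses other than MG 20 and LG 41, 361 of the 500 positive and 244 of the 500 negative genes were shared with these lists. For the 422 measured members of the positive list the median levels were then 1.26 log2 CPM in those fetuses, 2.71 in newborns and 2.90 at slaughter. For the 256 measured members of the negative list they were 3.58, 2.58 and 2.49. The SD of the positive list was 0.991, 0.567 and 0.666.

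Fetal libraries lay farther from their own group than F1 libraries did. The distance, a root mean square over 11691 genes from the mean of the other libraries of the group, averaged 0.641 ± 0.233 log2 CPM in LG fetuses and 0.709 ± 0.300 in MG fetuses (SD, n = 8 each). Over all fetuses it averaged 0.675 ± 0.262 (n = 16), against 0.435 ± 0.080 in F1 libraries (n = 31), a difference of 0.24 (permutation p = 1e-05, two-sided, the smallest that 100000 resamples can give, 5e-05 after adjustment over 5 tests of scores and distances). Of the 16 fetal libraries, 11 were above the highest newborn and the highest slaughter library, some narrowly, such as MG 31 with 0.601 against 0.600. MG 20 and LG 41 enter the means from which the other fetuses of their groups were measured. This count was not made without them. Without MG 20 and LG 41 the difference was 0.13 (permutation p = 0.00023). Both permutation tests treated the libraries as independent. Library numbers recur between stages, and distances within a group are measured from shared libraries, so these p-values may be too small. The distance did not differ detectably between LG and MG fetuses, with a difference of -0.07 (exact permutation p = 0.603, adjusted p = 0.754).

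**Figure D4:**
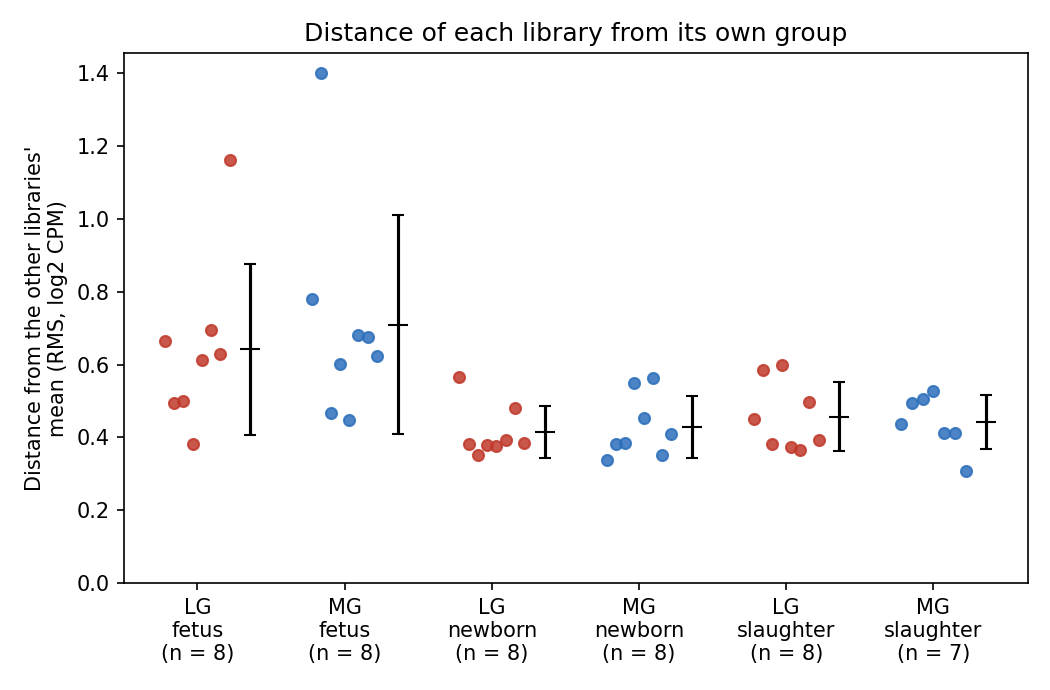
Distance of each library from the mean of the other libraries of its own group (y axis, root mean square of log2 CPM over 11691 genes) for the LG and MG groups of each stage; bars beside the points are mean ± SD. Fetal points run from 0.382 to 1.40, the highest being MG 20 and LG 41, while F1 points stay between 0.309 and 0.600.

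The fetal spread was the widest at every level of expression. The median within-group SD was 0.540 log2 CPM in fetuses, against 0.309 in newborns and 0.303 at slaughter, and the fetal SD was the largest of the stages for 9379 of 11691 genes (80.2%). In the 25% of genes with the highest levels the median was 0.453 in fetuses, 0.224 in newborns and 0.229 at slaughter. An SD over 1 was found for 1249 genes in fetuses, 98 in newborns and 144 at slaughter. Without MG 20 and LG 41 the fetal median was 0.433, the fetal SD was the largest for 66.4% of genes, and 372 genes exceeded an SD of 1.

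**Figure D5:**
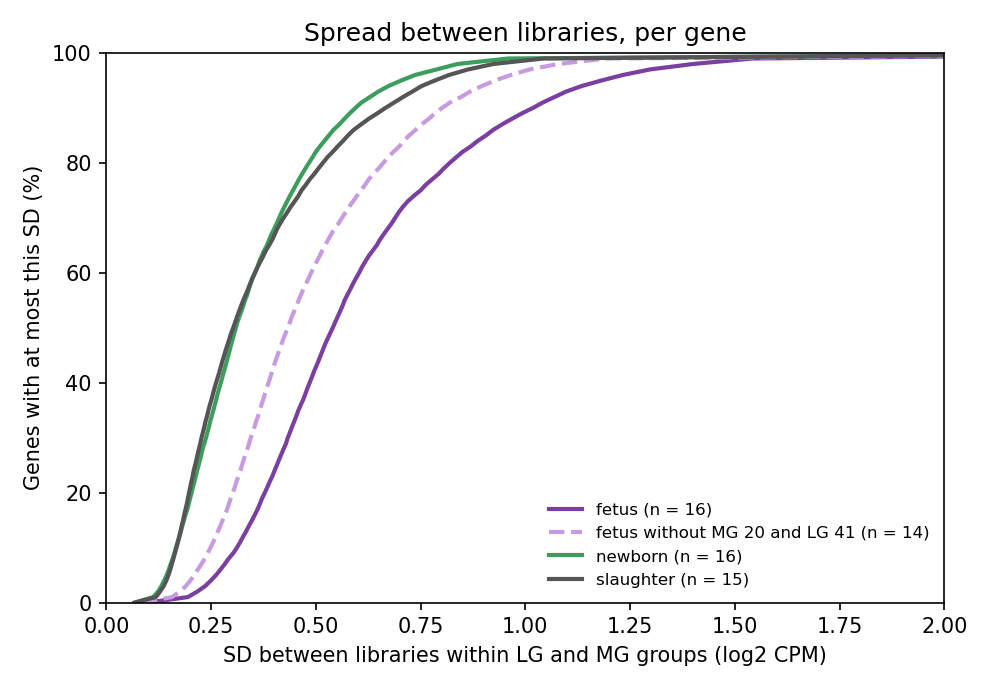
Cumulative share of 11691 genes (y axis) by the SD of log2 CPM between libraries within LG and MG groups (x axis) at each stage. The fetal curve lies to the right of the newborn and slaughter curves with all 16 libraries (median 0.540) and without MG 20 and LG 41 (dashed, median 0.433).

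Across the 16 fetuses, 51.7% of the 14200 tested genes spanned more than 4-fold between the lowest and the highest library, and 8.65% stayed within 2-fold. Without MG 20 and LG 41 these shares were 35.2% and 21%. The wide range reached very abundant transcripts. ENSBTAG00000054661 ranged from 1200 to 20900 CPM in LG fetuses (median 12100) and from 805 to 23600 CPM in MG fetuses (median 11000), and it was lowest in MG 32 and LG 11. The 2 most abundant genes were steadier. ENSBTAG00000013066 had 19700 to 32400 CPM in LG fetuses (median 21300) and 10200 to 25300 CPM in MG fetuses (median 18900). ENSBTAG00000054745 had 12400 to 28000 CPM in LG fetuses (median 15400) and 9820 to 17500 CPM in MG fetuses (median 13200). LG 41 had the highest level of both.

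These most abundant fetal genes were also compared with the other stages. They were chosen for a high level in fetuses, which favours a higher fetal value. The p-values of these genes are therefore a description and no independent evidence of a stage difference. ENSBTAG00000013066 was higher in fetal than in newborn muscle by a log2 value of 3.07 (SE 0.14, edgeR adjusted p = 5.01e-20) and higher than at slaughter by 5.99 (SE 0.18, edgeR adjusted p = 5.37e-24). For ENSBTAG00000054745 the fetal log2 fold change was -0.07 over newborn muscle (SE 0.16, edgeR adjusted p = 0.690) and 3.31 over slaughter (SE 0.22, edgeR adjusted p = 4.11e-15). These fold changes are relative to TMM scaling, under which the median of all genes was 0.12 in fetuses against newborns and 0.16 against slaughter. Such changes were the rule, with 12141 of 14820 genes passing against newborns (81.9%) and 12484 of 14960 against slaughter (83.4%).

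A few genes had a wide gap between a high and a low set of fetuses. A gap of over 5.66-fold (log2 CPM with a prior count of 2) with at least 3 libraries on each side was found for 8 genes. For 4 of them it exceeded 16-fold, and 6 of the 8 were among the 14200 tested genes. The threshold and these genes were chosen after the values were seen. The 8 sets of high libraries were all different. Some of these genes were low throughout. The high sets of ENSBTAG00000014496 and ENSBTAG00000018445 started at 0.776 and 0.621 CPM, against 0 counts in their low sets. ENSBTAG00000012710 had 20.3 to 44.3 CPM in LG 22 and in MG 20, MG 23, MG 39 and MG 47, and at most 0.263 CPM in the other 11 libraries. ENSBTAG00000020592 had 3.31 to 22.7 CPM in 7 LG and 2 MG fetuses, and 0 counts in 1 LG and 6 MG fetuses. Its fitted log2 fold change of 3.21, the highest of all tested genes, had an SE of 1.20 and did not pass (edgeR adjusted p = 1.00). ENSBTAG00000012710 was present in too few libraries for the filter on low counts and was not tested.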

How the data were processed

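PolyA RNA of Longissimus muscle was prepared with a non-directional kit and sequenced as paired reads, per the labels' protocols. For each stage a table of whole-number counts per gene was deposited by the authors. The submitters' processing notes name STAR 2.7.3a, edgeR 3.24.3, FastQC 0.11.8 and MultiQC 1.9. The sources used here name no genome build, annotation or counter. Without strand, overlapping antisense genes cannot be told apart. The header of the slaughter table has no cell for the identifiers, and that of the fetal table names no identifier column. In both, names were assigned from the left to the columns of values.

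Counts were analysed in R 4.3.3 with edgeR 4.0.16 (filterByExpr, TMM, robust quasi-likelihood test, Benjamini-Hochberg adjustment over all tested genes). LG was compared with MG in the 16 fetal libraries alone; stages and interactions used 2 stages at a time. Alternatives used DESeq2 1.42.0, limma 3.58.1 and sva 3.50.0. CPM values of fetal libraries use fetal TMM factors. Components and distances use log2 CPM with a prior count of 2. The labels do not say that each number is a separate animal, and the p-values cover the variation among these libraries, which may be technical. Over 56 pairs of libraries within the fetal groups, chi-square per degree of freedom was at least 24.5, so none was merged. The scripts were tested on simulated data.

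The groups, lists and tests were chosen with earlier results of these data known. The naming rule was the 2 identifiers per direction with the smallest p, the 2 most abundant, the 2 of widest spread and the 2 largest weights per direction. Genes with a gap were added later. Gene lists, marker lists and an XIST covariate were not run, as no identifier had a symbol.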

Additional observations from a re-analysis of the deposited data

Results flagged for a closer look

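Among 38 sets of 8 fetal values, 7 had an end value separated from the other values by a wide gap. Chance gives about 1 in 20 for independent sets, a rate that does not apply here, since several sets belong to the same library and some genes were chosen for their spread or component weight. LG 41 stood apart among LG fetuses with 287 genes holding 50% of its counts, with a score of 108 on the second component, with a distance of 1.16 log2 CPM from the other LG libraries and with 28000 CPM of ENSBTAG00000054745. MG 20 stood apart among MG fetuses with a distance of 1.40 log2 CPM, with 1090 CPM of ENSBTAG00000006907 and with 387 CPM of ENSBTAG00000004079.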

How the results depend on the processing

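No gene passed an adjusted p of 0.05 for LG against MG in fetuses with DESeq2, limma voom with or without sample weights, DESeq2 size factors, another filter, 1 surrogate variable, any library left out, or without MG 20 and LG 41. A single model over all 47 libraries called 2 genes, ENSBTAG00000048722 and ENSBTAG00000016229. Both had medians under 0.5 CPM in LG and MG fetuses and did not pass the filter of the fetal fit. The looser rule of p under 0.01 and a log2 change beyond 0.5 was met by 9 genes. The 102 genes at an unadjusted p under 0.05 became 215 with DESeq2, 2794 with limma voom and sample weights, 887 with no filter, 470 with 1 surrogate variable, 398 in the model over 47 libraries and 548 without MG 20 and LG 41. They ran from 74 to 380 when each library was left out, with 380 without MG 20, 209 without MG 45 and 195 without LG 29. The causes of these shifts were not tested.

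The LG minus MG score on the first component, 0.21, had no stable sign. It was -0.66 with DESeq2 size factors, -2.53 with a prior count of 0.5 and -0.20 with thinned counts, and ran from -13.11 to 15.67 with each library left out (exact permutation p from 0.564 to 0.996). The LG minus MG difference in distance ran from -0.157 to 0.0594, turning positive without MG 20. The wider fetal distance held in all alternatives run. ENSBTAG00000017681 had a log2 fold change of 0.59 with limma voom and sample weights, and ENSBTAG00000040518 had -0.99 with limma voom without them.

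Same-numbered libraries carried the same treatment label at every stage. The r of their deviations was over 0.1 in 6 of 15 fetus and slaughter pairs and 3 of 7 fetus and newborn pairs. A low r between stages cannot show that the numbers are unlinked. The main fits did not treat the numbers as pairs. With the replicate number as a block, 12384 genes passed between fetus and slaughter, 10221 between fetus and newborn, and 0 for the interaction with slaughter. The block fits used only libraries of shared numbers, 30 with slaughter and 14 with newborn. Without the block, the same libraries gave 12399 and 10336 genes.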
